A study of Drosophila melanogaster with 36 samples.

Results

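Small RNA was compared between ZT12 and ZT0 in the heads of young female flies, with 3 libraries at each time and 6 of the 36 libraries of the study in all. Zeitgeber time (ZT) counts hours of the day cycle, by convention from lights-on, and the labels give no light schedule. The libraries were picked by their labels, as those of age 5 days collected at ZT0 or ZT12, with earlier results of these data known. Each library was made from 400 whole heads of w1118 females, a white-eyed laboratory strain with no transgene, and the other libraries of the study cover ZT4, ZT8, ZT16 and ZT20 and the same 6 times in old flies of 55 days. A head sample mixes brain, retina, muscle, fat body and cuticle, so fewer cells of a type and less RNA per cell cannot be told apart. The comparison asks which small RNAs stand at different levels 12 h apart. The labels do not say whether replicates were separate cohorts of flies, and p-values reflect just the spread among the libraries.

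A miRNA is cut from a hairpin precursor whose arms, named 5p and 3p, can each give a mature RNA, and usually a single arm of them is loaded into Argonaute to repress messenger RNAs. In fly heads miRNAs are known to tune the circadian clock and its outputs: miR-276a acts on the clock gene timeless, miR-263a and miR-263b on the strength of behavioural rhythms, and miR-279 on rest and activity downstream of the clock. piRNAs come from long genomic clusters, silence transposons and are best known from the gonads.

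No miRNA arm passed the test between ZT12 and ZT0. Of 673 miRNA features listed, 338 had enough reads to be tested, 281 with a miRBase name and 57 with an rr identifier that the files leave undefined. With edgeR's quasi-likelihood test and an adjusted p threshold of 0.05, 0 of the 338 were called higher (0%) and 0 lower (0%). At an unadjusted p under 0.05 there were 29 (8.58%), of which 11 were higher (3.25%) and 18 lower (5.33%) at ZT12. DESeq2 called 1 feature and limma on the deposited RPM 1 other. All 3 ZT12 libraries lay above all 3 ZT0 libraries for 26 features (7.69%) and below them for 13 (3.85%), 195 (57.7%) had a fitted difference above 0, and 15 (4.44%) one over 2-fold. Among the 162 features whose mean reached 10 CPM (counts scaled to the size of the library), the median standard error of the log2 difference was 0.20, and for 128 the 95% interval lay within 2-fold either way.

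Each library held 19.8 to 26.4 M miRNA counts. One library, which also had the lowest total, stood apart from the other 5. Reads of miR-184-3p took 45.3% of all miRNA counts in ZT0 replicate 1, against 8.90% to 11.4% in the others, and 37 of the 162 features of at least 10 CPM were over 2 times or under 0.5 times the median of the other 5 libraries. The same count was 0 in 4 of the other libraries and 1 in ZT12 replicate 3. Log2 levels correlated with r of 0.986 and 0.987 between ZT0 replicate 1 and its 2 group mates and with r of 0.997 to 0.999 in the other pairs of a group. Fitted differences that this library moves are given below with and without it; whether its excess comes from the flies or the library was not tested. Outside these 6 libraries the share of miR-184-3p was 8.39% to 18.6%, except in old ZT0 replicate 3, where it was 37.1%. Summed RPM of the ovary miRNAs miR-318, miR-989 and miR-994 was low in all 6, from 11.4 to 19.4, whereas it reached 889 among the other young libraries, and the neuronal miR-124 arms summed to 170 RPM in ZT0 replicate 1 and to between 504 and 614 RPM in the other 5. These RPM are shares of the miRNA counts, of which miR-184-3p takes up more in ZT0 replicate 1.

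**Figure D1:**
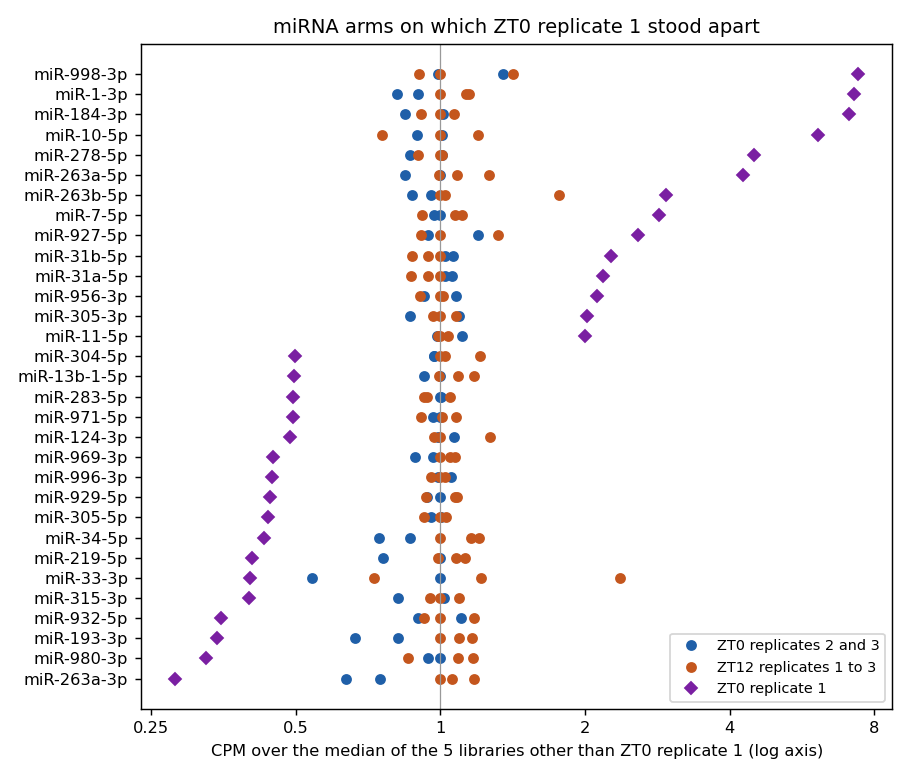
Level of each named miRNA arm on which ZT0 replicate 1 was over 2 times or under 0.5 times the other libraries, as CPM over the median of the other 5 libraries (log axis); 1 point per library. The diamond of ZT0 replicate 1 reaches 7.42 for miR-998-3p and 0.280 for miR-263a-3p, while the ZT0 and ZT12 libraries that remain lie mostly close to 1.

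Levels here are CPM on a scale set by TMM factors, which compare the bulk of the features, so miR-184-3p in ZT0 replicate 1 can read higher than its share of the counts. This miRNA, known for its part in female germline development and abundant in the fly head, stood at 717262, 102576 and 85397 CPM in ZT0 replicates 1 to 3 and at 108124, 101322 and 92238 CPM in ZT12. A single library was high and the other 5 overlapped. That library was singled out beforehand by its miR-184-3p, so a fitted difference near 0 without it follows from the choice. The fitted log2 difference was -1.59 with the library and 0.05 without it. Another 4 arms of this kind were among those of smallest p: the muscle miRNA miR-1-3p, at 2808, 313 and 347 CPM in ZT0 and 386, 437 and 442 in ZT12, the Hox-cluster miRNA miR-10-5p, at 23033, 3369 and 3801 and 2849.7, 3773 and 4528 CPM, miR-278-5p, from a hairpin linked to insulin response, and miR-998-3p, which is intronic to E2f1, a cell cycle gene. Their log2 differences of -1.45, -1.44, -1.13 and -1.55 became 0.31, 0.01, 0.00 and -0.12 without ZT0 replicate 1. The sensory-organ miRNAs miR-263a-5p, miR-263b-5p and miR-7-5p were also high in that library, at 4.26, 2.95 and 2.86 times the median of the other 5. From the same list of eye and sense organs, miR-996-3p (0.446 times) and miR-263a-3p (0.280 times) were low there. Other arms low there included miR-932-5p, whose hairpin lies in Nlg2, a neuroligin gene (0.349 times), and miR-929-5p, from an intron of the complexin gene cpx (0.441 times). Also low were miR-219-5p (0.406 times), miR-124-3p (0.486 times), miR-980-3p (0.325 times), miR-33-3p (0.402 times) and miR-34-5p (0.429 times). In the list of neurons miR-932-5p, miR-219-5p and miR-124-3p were thus low, whereas miR-927-5p was high (2.58 times). Summed RPM of that list was 58870, 76958 and 70197 in ZT0 replicates 1 to 3. Divided by the TMM factors of 0.631, 1.03 and 1.04, this sum was highest in replicate 1. Of the 37 features that stood apart in this library 20 were high and 17 low. The high ones hold a set of rr features with nearly the same values and the near-identical miR-31a-5p and miR-31b-5p, each counted apart.

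**Figure D2:**
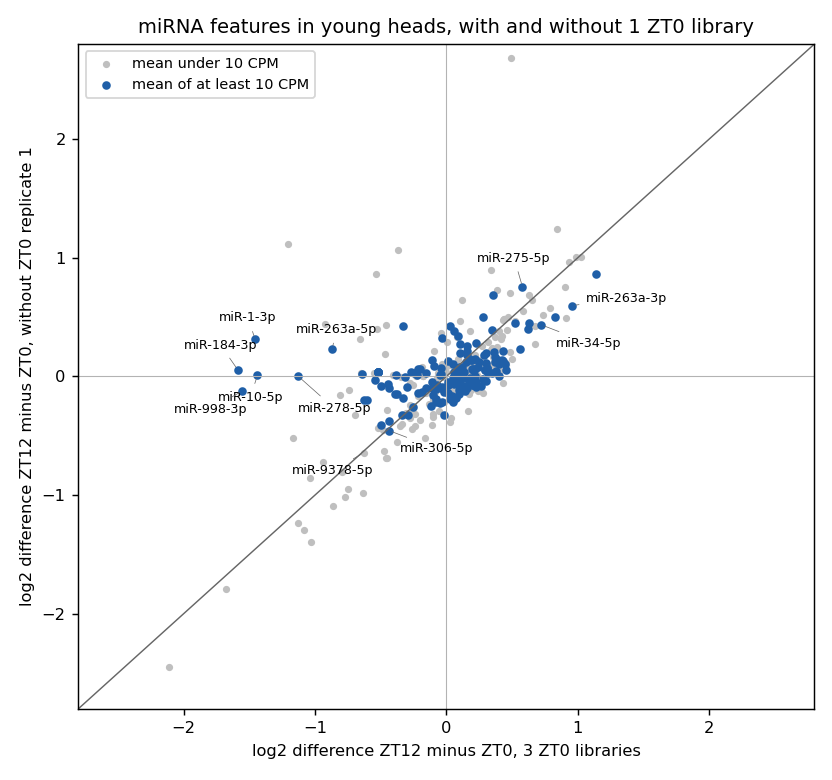
Fitted log2 difference of ZT12 minus ZT0 for the 338 miRNA features, with all 3 ZT0 libraries (x axis) and without ZT0 replicate 1 (y axis); the line marks equal values. The group of miR-184-3p, miR-10-5p, miR-998-3p, miR-1-3p and miR-278-5p lies between -1.59 and -1.13 on the x axis. On the y axis it lies nearer 0, with miR-1-3p at 0.31. By contrast miR-263a-3p, miR-34-5p, miR-275-5p, miR-306-5p and miR-9378-5p keep their sign.

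Without ZT0 replicate 1 the test again called 0 features, higher or lower, of 356 tested (0%), with 19 at an unadjusted p under 0.05 (5.34%), 9 of them higher (2.53%) and 10 lower (2.81%). A fit of the 6 libraries alone called 0 of 306 (0%), with 15 at an unadjusted p under 0.05 (4.9%), 8 higher (2.61%) and 7 lower (2.29%). The median absolute log2 difference over all features was 0.26 with that library and 0.13 without it, and the 95% interval lay within 2-fold for 148 of the 162 features of at least 10 CPM. ZT12 lay above ZT0 replicates 2 and 3 for 48 features (14.2%) and below them for 28 (8.28%).

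The smallest p of all belonged to miR-9378-5p, in an intron of CG17124 (chromosome 2L, 10751877 to 10751938, minus strand, build BDGP6). Its mean lies under the 10 CPM set for naming, and it was picked after its values were seen. It stood at 9.05, 8.57 and 8.48 CPM in ZT0 and at 5.48, 5.76 and 5.66 CPM in ZT12. The groups were tight and did not overlap, and ZT0 replicate 1 lay with its group (log2 difference -0.63, SE 0.14, 95% interval -0.92 to -0.33, adjusted p = 0.123, edgeR). The mean was 6.58, 6.58, 6.65 and 7.27 CPM at ZT4, ZT8, ZT16 and ZT20, between those of ZT0 and ZT12. The arm was called by DESeq2 (adjusted p = 0.0223) and with RLE scaling (edgeR adjusted p = 0.0479), and without ZT0 replicate 1 its log2 difference was -0.64 (edgeR adjusted p = 0.124). Over its alternatives the adjusted p ran from 0.0223 to 0.498.

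Of the arms of at least 10 CPM, miR-263a-3p had the smallest p. Its hairpin, a regulator of sensory bristle survival and of rhythm strength, lies in an exon of lncRNA:CR43314 (chromosome 2L, 11953410 to 11953503, minus strand). The arm stood at 15.1, 34.1 and 40.2 CPM in ZT0 and at 53.8, 56.7 and 63.2 CPM in ZT12. All ZT12 values were higher, and ZT0 replicate 1 was the lowest of the 18 young libraries (log2 difference 0.95, SE 0.27, 95% interval 0.38 to 1.53, adjusted p = 0.307, edgeR). Without that library the log2 difference was 0.60 (95% interval 0.12 to 1.07). Means at ZT4, ZT8, ZT16 and ZT20 were 36.2, 52.3, 52.5 and 41.4 CPM, so that ZT12 was the highest of the 6 times and ZT0 the lowest, although without ZT0 replicate 1 the ZT0 mean of 37.2 CPM lay above that of ZT4. The dominant arm miR-263a-5p, at 85688, 20100.1 and 16922 CPM in ZT0 and 25382, 21766 and 20002 in ZT12, overlapped between the groups, with a log2 difference of -0.87, or 0.23 without ZT0 replicate 1. Its seed relative miR-263b-5p also overlapped, at 208, 61.4 and 67.5 CPM in ZT0 and 124, 72.1 and 70.5 in ZT12, with a log2 difference of -0.33, or 0.42 without that library.

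Next in p was miR-34-5p, which is known to protect the ageing fly brain and lies with miR-277 and miR-317 in lncRNA:CR43459 (chromosome 3R, 10100936 to 10101034, plus strand). It stood at 18518, 37298 and 32122 CPM in ZT0 and at 43165, 51926 and 50050.3 CPM in ZT12. The groups did not overlap (log2 difference 0.72, SE 0.21, 95% interval 0.27 to 1.17, adjusted p = 0.307, edgeR), and the log2 difference without ZT0 replicate 1 was 0.43 (95% interval 0.11 to 0.76). Means at ZT4, ZT8, ZT16 and ZT20 were 50742, 51286, 48705 and 49067 CPM, near that of ZT12, so ZT0 was the time that stood apart. Its neighbour miR-277-3p, which controls amino acid breakdown, stood at 17537, 27216 and 28854 CPM in ZT0 and 27039, 26546 and 27322 in ZT12, with overlapping groups and a log2 difference of 0.14, or -0.10 without ZT0 replicate 1.

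The chromosome 2L cluster in the checkpoint kinase gene grp, which also holds miR-79, miR-9b and miR-9c, gave miR-306-5p (chromosome 2L, 16698404 to 16698488, plus strand, intron). This arm stood at 1253, 1342 and 1036 CPM in ZT0 and at 980.3, 829 and 874 CPM in ZT12. All 3 ZT0 values were higher (log2 difference -0.44, SE 0.14), and the difference without ZT0 replicate 1 was -0.46. The other 4 times had means of 934, 988, 864 and 881 CPM, so ZT0 was the highest time. The rest-activity miRNA miR-279-3p, in lncRNA:CR31044 (chromosome 3R, 29215585 to 29215684, plus strand), was likewise higher in every ZT0 library, at 2816, 2026 and 2321 against 1538, 1719.6 and 1811 CPM (log2 difference -0.50, SE 0.18; -0.41 without ZT0 replicate 1). Its cluster mate miR-996-3p, which shares the seed, overlapped between the groups at 622, 1379 and 1463 and 1393, 1332 and 1425 CPM.

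The groups of miR-275-5p lay further apart without ZT0 replicate 1 than with it. The hairpin, known from the gut and from blood-meal digestion in mosquitoes, lies in lncRNA:CR43857 (chromosome 2L, 7425795 to 7425892, plus strand). The arm stood at 127, 96.7 and 72.5 CPM in ZT0 and at 160.1, 157 and 126 CPM in ZT12. ZT0 replicate 1 was above the lowest ZT12 value and the other 2 ZT0 values were below all of ZT12 (log2 difference 0.58, SE 0.20). Without it the difference was 0.75 (unadjusted p = 0.000868, adjusted p = 0.154, edgeR). It was called where library totals alone set the scale (log2 0.86, edgeR adjusted p = 0.0464; 0.0359 to 0.798 over its alternatives), a scaling that moved the median of all features from 0.06 to 0.28.

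**Figure D3:**
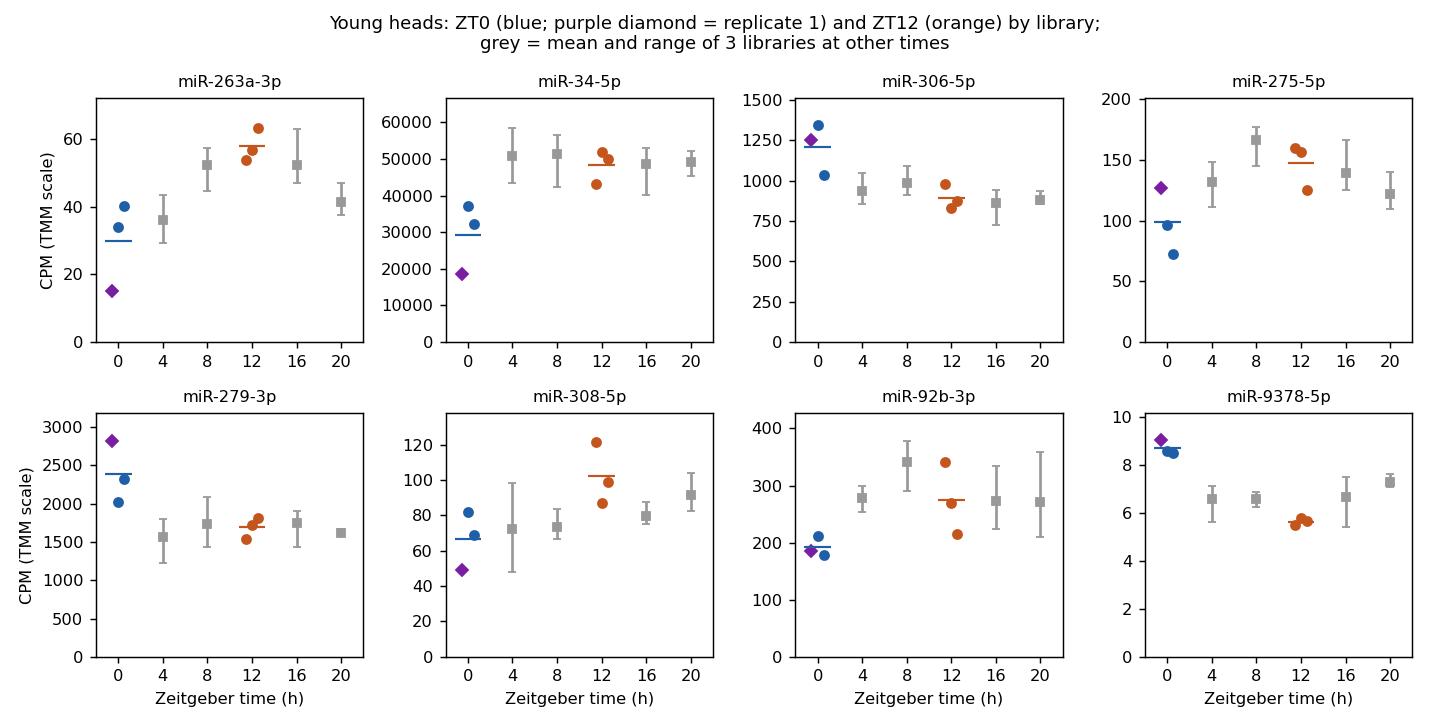
CPM of 8 arms over the day in young heads, with 1 point per library at ZT0 and ZT12 (bar at the group mean) and the mean with the range of 3 libraries at the other times. For miR-34-5p the ZT0 libraries lie lowest, for miR-306-5p, miR-279-3p and miR-9378-5p the ZT0 mean is the highest of the 6 times, and for miR-263a-3p ZT12 is highest.

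Next in order of p came a further set of arms. All ZT12 values lay above all ZT0 values for miR-308-5p, from an intron of the ribosomal protein gene RpS23 (48.9, 82.0 and 69.1 and 122, 87.0 and 98.7 CPM, log2 0.62, or 0.40 without ZT0 replicate 1), and for miR-92b-3p, known from neural stem cells and muscle (185, 211 and 179 and 342, 269 and 214 CPM, log2 0.52, or 0.45). For miR-92b-3p the nearest values of the groups almost met. The same order held for miR-193-3p (0.83; 0.50 without ZT0 replicate 1) and miR-969-3p (0.43; 0.13). All ZT12 values lay below for miR-986-5p, in an intron of the cytochrome P450 gene Cyp4e2 (-0.43; -0.37), and for miR-31a-5p and miR-31b-5p (-0.60 and -0.63; -0.20 and -0.20), near-identical arms that the counting could split. The groups overlapped for miR-33-3p, whose hairpin lies inside the lipid regulator gene SREBP (1.14; 0.86), and for miR-11-5p, from E2f1 (-0.44; -0.10). In all of these the adjusted p lay between 0.415 and 0.55 (edgeR).

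Several abundant arms had narrow intervals around 0. The clock-linked miR-276a-3p stood at 58234, 59076 and 60503 CPM in ZT0 and 58418, 56388 and 58421 in ZT12, and its log2 difference of -0.04 had a 95% interval of -0.24 to 0.16; without ZT0 replicate 1 it was -0.09 (-0.33 to 0.14). Near-identical miR-276b-3p gave -0.03 (-0.23 to 0.17), and the counting could split reads between the pair. These intervals hold for the TMM scale. With library totals alone the pair gave 0.18 and 0.19, and with limma on RPM 0.22 and 0.23, all outside them. Both settings also raise the median of all features. The retinal miR-210-3p gave 0.20 (-0.09 to 0.49), and -0.02 without ZT0 replicate 1. The fat body and growth miRNA miR-8-3p gave 0.05 (-0.31 to 0.41) and the growth miRNA bantam-3p, which also acts on the clock, 0.07 (-0.28 to 0.42). Without ZT0 replicate 1 these were -0.22 and -0.18. The developmental timing miRNA let-7-5p and its cluster mates miR-100-5p and miR-125-5p gave -0.11, -0.32 and -0.05, or 0.14, 0.00 and 0.01 without it. Neuronal miR-124-3p (0.35; 0.03 without it), miR-219-5p (0.56; 0.23) and miR-375-3p (0.22; 0.15) overlapped between the groups. With all 6 libraries, differences as large as 2-fold lie outside all but 1 of these intervals, that of miR-219-5p (-0.12 to 1.24). The ovary miRNA miR-318-3p stood at 15.9, 14.5 and 13.3 and 15.4, 17.7 and 15.6 CPM, and its wide interval of -2.28 to 2.60 comes from a fit that includes young libraries with up to 743 CPM. The ovary arm miR-989-3p and the feeding-linked miR-959-3p were under 2 CPM in each of the 6 libraries.

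**Figure D4:**
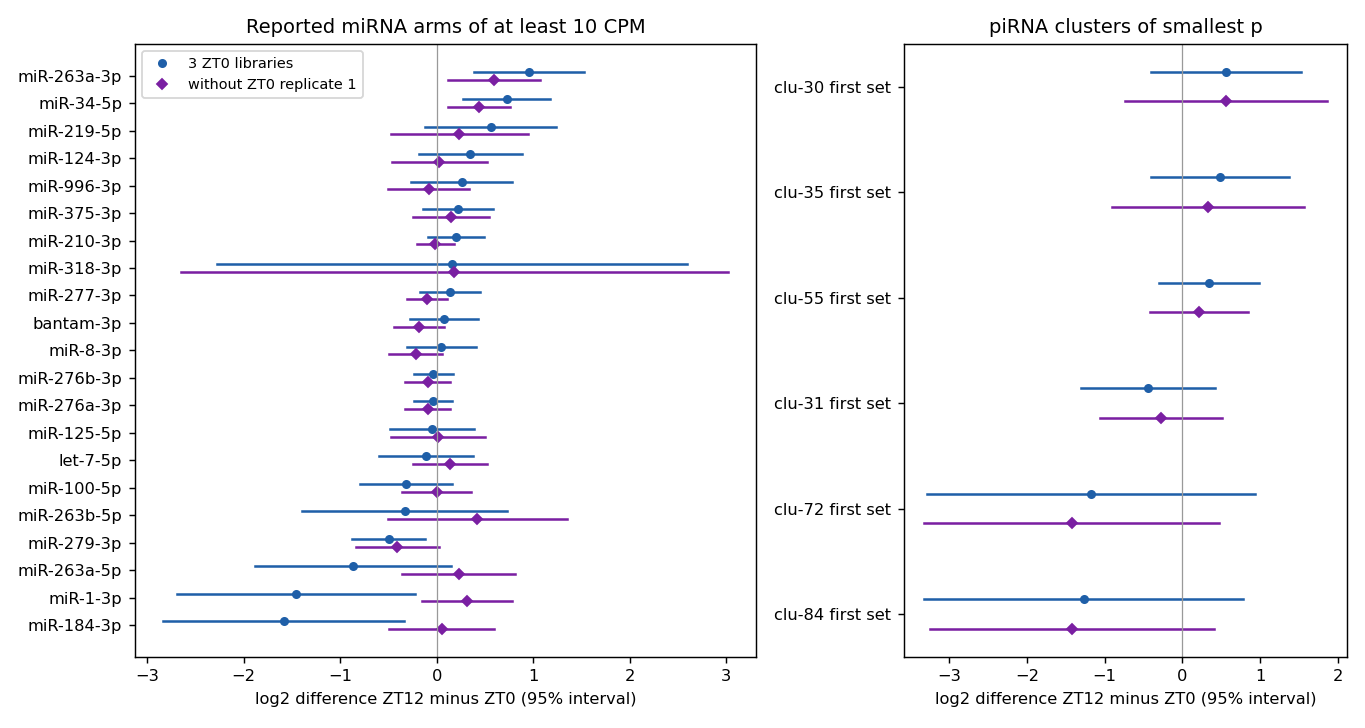
Log2 difference of ZT12 minus ZT0 with its 95% interval, with all 3 ZT0 libraries (circles) and without ZT0 replicate 1 (diamonds), for reported miRNA arms (left) and the 6 piRNA clusters of smallest p (right). Narrow intervals near 0 belong to miR-276a-3p and miR-276b-3p, and those of miR-184-3p and miR-1-3p move to include 0 without ZT0 replicate 1.

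Ratios of arms or neighbours within a library do not depend on how libraries are scaled. The pairs described here were picked after their values were seen, and no test was run on them. The ratio of miR-34-5p to miR-277-3p, which are transcribed together and lie 914 bases apart, was 1.06, 1.37 and 1.11 in ZT0 and 1.60, 1.96 and 1.83 in ZT12, with 1.38 to 2.26 in the 12 libraries of the other times. The 3 ZT0 libraries were thus the lowest of the 18, the nearest by a narrow margin, and the ZT12 to ZT0 fold of 1.53 was 1.45 without ZT0 replicate 1. The ratio of miR-306-5p to miR-9b-5p was 2.35, 2.19 and 2.07 in ZT0 and 1.60, 1.55 and 1.56 in ZT12. The 3 ZT12 libraries were the lowest of the 18 (other times 1.65 to 2.11). Over miR-9c-5p of the same cluster the groups overlapped, at 0.587, 0.554 and 0.411 in ZT0 and 0.397, 0.345 and 0.413 in ZT12. Over miR-79-3p they did not, at 252, 141 and 117 in ZT0 and 101, 98.4 and 86.4 in ZT12. For miR-279-3p over miR-996-3p the values were 4.53, 1.47 and 1.59 in ZT0 and 1.10, 1.29 and 1.27 in ZT12. The first of these was far from its group, and the groups did not overlap.

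The arms of a hairpin were also set side by side. Among 87 hairpins with both arms tested, 43 had differences of the same sign, and among 43 with both arms of at least 10 CPM, 21. No arm was called, and these counts do not test whether arms move together. The 5p to 3p ratio did not overlap between the times for 3 of these 43 (6.98%), namely miR-34, miR-193 and the mirtron miR-1012. For miR-34 it was 16.2, 51.8 and 44.9 in ZT0 and 77.6, 68.0 and 64.9 in ZT12. In ZT0 replicate 1 the ratio was over 2 times or under 0.5 times the median of the other 5 libraries for 16 of the 43 hairpins. The ratio of miR-263a-5p to miR-263a-3p was 5690.0, 589 and 421 in ZT0 and 472, 384 and 317 in ZT12. The minor arm miR-184-5p, at 4.65, 4.78 and 3.10 CPM in ZT0 and 10.4, 6.69 and 6.76 in ZT12, shared none of the excess of miR-184-3p in that library, and its groups did not overlap (log2 difference 0.93, SE 0.31; 0.96 without ZT0 replicate 1). It lies under the 10 CPM set for naming and was picked after its values were seen.

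**Figure D5:**
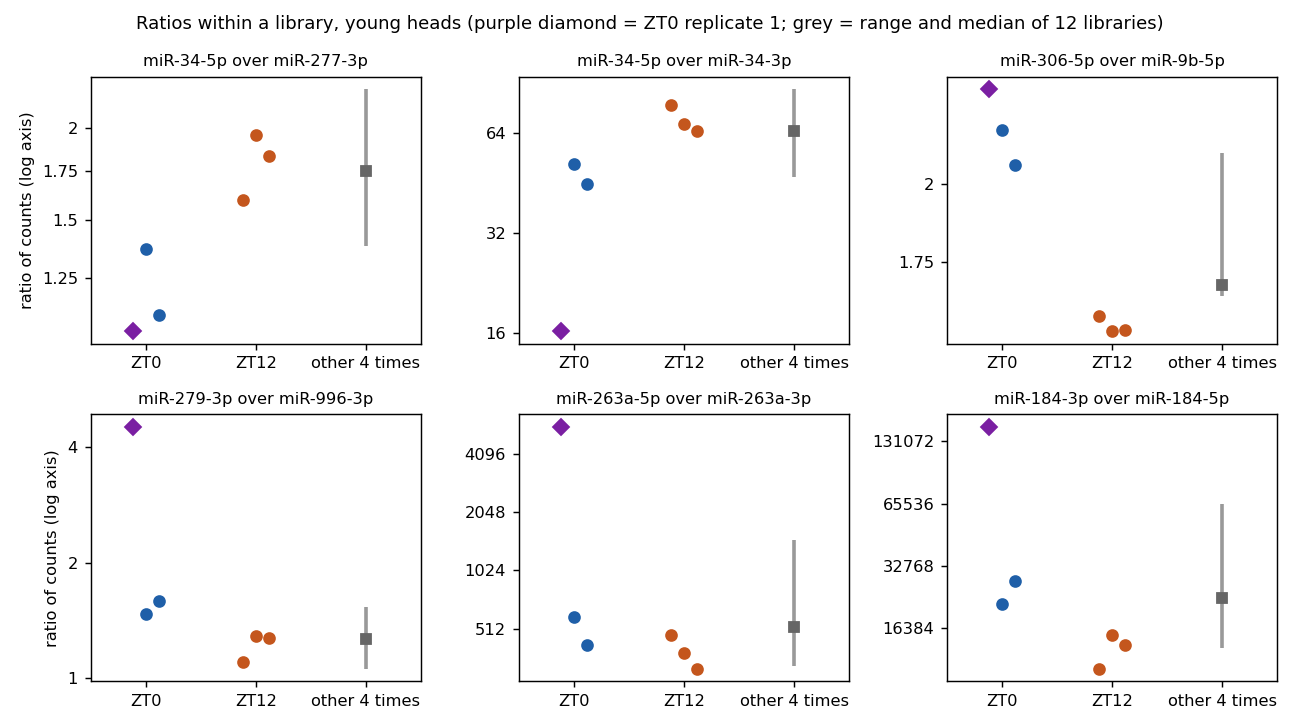
Ratios of counts within a library (log axis) for 6 pairs of arms, with 1 point per library at ZT0 and ZT12 and the range and median of the 12 libraries of the other times. In ZT0 replicate 1 (diamond) miR-263a-5p over miR-263a-3p and miR-184-3p over miR-184-5p lie far above the rest, while for miR-34-5p over miR-277-3p this library lies with its group.

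Time of day was also read from the means of the 6 times. Of the 162 features of at least 10 CPM, 42 had their highest mean at ZT0, 42 at ZT8 and 41 at ZT12, and 72 had their lowest at ZT0, against 24 at ZT12. With ZT0 taken as the mean of replicates 2 and 3 alone, 50 features had their lowest mean at ZT0, 41 at ZT4 and 24 at ZT12, and 27 had their highest at ZT0, 40 at ZT8 and 36 at ZT12. ZT0 replicate 1 itself lay below the other 5 libraries for 71 features and above them for 52.

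None of the miRNA groups listed for this tissue held a called member, and ZT0 replicate 1 moved most of their medians. In the clock and rest-activity list 19 of 32 tested arms had a difference above 0, beside 57.7% of all 338 features. The median of the list was 0.13, beside 0.06 over all features. Without ZT0 replicate 1 that median was -0.02, beside 0.02 over all features. Members of the K box family, such as miR-2, miR-11, miR-13 and miR-308, repress Notch targets and death genes. Its list counts locus copies apart, such as miR-6-3p_1 and miR-6-3p_2 (log2 0.44 each). In it 21 of 23 tested arms were above 0, with a median of 0.29. Without ZT0 replicate 1 the median was 0.07, beside 0.02 over all features. Of the mirtrons, whose precursors are made by splicing of short introns, 16 of 22 arms were above 0, with a median of 0.19, and 0.10 without that library. In the list of fat body and metabolism 11 of 16 arms were above 0, with medians of 0.12 and -0.02 with and without it. The list of ageing and neuroprotection had 12 of 23 above 0 (0.02 and -0.07) and that of neurons 13 of 25 (0.04 and 0.00). The eye and sense organ list had 6 of 13 above 0 (-0.10 and -0.02), that of immune regulation 10 of 20 (-0.03 and -0.10) and the miR-9/79 family 4 of 9 (-0.02 and -0.13). An unadjusted p under 0.05 was reached by 3 of 32 arms of the clock list, 3 of 16 of fat body, 3 of 20 of immune regulation, 2 of 13 of eye and sense organs, 0 of 25 of neurons and 1 arm in each of the other 4 lists, beside 8.58% of all features. The feeding-clock cluster of miR-959 to miR-964, known to cycle with feeding in fly heads, was near the detection limit, with 5 of 12 arms tested and a summed RPM of 1.36 to 2.29 in the 6 libraries.

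The smaller clusters, too, held no called arm. Medians with and without ZT0 replicate 1 were -0.08 and 0.01 for the let-7 complex (2 of 6 arms above 0 with it), 0.01 and -0.10 for the miR-34 cluster (3 of 6) and 0.08 and 0.01 for the miR-12, miR-283 and miR-304 cluster in Gmap (3 of 6). They were -0.07 and -0.06 for the miR-310 cluster (2 of 5) and -0.04 and 0.36 for the feeding-clock cluster (2 of 5). Testis miRNAs had 5 of 6 tested arms above 0 (0.27 and 0.06) and early embryo miRNAs 5 of 7 (0.36 and 0.22), both at a summed RPM of 61.7 or less in each library. These counts include locus copies with nearly the same values, miR-983-5p and miR-983-5p_1 (0.36 each) and miR-6-3p_1 and miR-6-3p_2 (0.44 each). Of the ovary arms 1 of 3 was above 0 (-0.03 and 0.18), of the muscle arms of miR-1 1 of 2 (-0.33 and 0.44), and of the miR-124 arms 2 of 2 (0.26 and -0.02). The miR-1 medians join miR-1-3p (-1.45, mean 789 CPM) with miR-1-5p (0.79), which had a mean of just 0.19 CPM.

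piRNA clusters were compared with less precision than miRNA arms in the fit of all young libraries. The files list 56 clusters, each in a first and a second set of columns, with no positions and nothing on how the sets differ. Of the 112 features 72 were tested, and 0 were called higher (0%) or lower (0%) by edgeR, 0 reached an unadjusted p under 0.05, and DESeq2 and limma called 0. Without ZT0 replicate 1 edgeR called 0 of 84 (0%), with 0 at an unadjusted p under 0.05. Totals per library were 139322 to 303896 counts, the median SE of the log2 difference was 0.51, and for 16 of the 72 the 95% interval lay within 2-fold. All ZT12 libraries lay above all ZT0 libraries for 6 features (8.33%) and below for 3 (4.17%). The smallest p, 0.210, was that of clu-84 in the first set, at 45.4, 60.8 and 32.0 CPM in ZT0 and 20.2, 20.8 and 15.7 in ZT12. Here ZT12 was lower in every library (log2 -1.27, 95% interval -3.32 to 0.79, or -1.42 without ZT0 replicate 1). It was also lower for clu-72 in the first set, at 18.2, 20.3 and 32.0 and 15.1, 10.4 and 5.23 CPM (log2 -1.18, or -1.42). Both rest on few reads. The lowest rounded count was 5 in ZT0 and 3 in ZT12 for clu-84, and 2 and 1 for clu-72. Neither passed the filter in the fit of the 6 libraries alone. In clu-35 of the first set ZT12 was higher, at 267, 302 and 272 against 191, 218 and 192 CPM. Its log2 difference was 0.48 (95% interval -0.41 to 1.37), or 0.33 without ZT0 replicate 1 (-0.90 to 1.57). In clu-55 of the first set ZT12 was also higher (0.35, or 0.22 without ZT0 replicate 1). In the same set clu-30 (0.57, or 0.56) and clu-31 (-0.44, or -0.27) overlapped. The second set gave log2 differences of 0.01 for clu-84, -0.07 for clu-35, -0.02 for clu-55 and -0.01 for clu-30. It gave -0.59 for clu-31, and the groups overlapped in each of these. The most abundant cluster, clu-51 in the first set, stood at 668991, 600387 and 491773 CPM in ZT0 and 816921, 631812 and 624854 in ZT12, on a scale that the TMM factors move. In a fit of the 6 libraries alone, which leaves out the other times and with them a pair of young libraries rich in ovary miRNAs, 51 features were tested, 0 were called and 3 had an unadjusted p under 0.05 (5.88%), each lower at ZT12.

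The make-up of the libraries was compared with exact permutation tests, which cannot go below a p of 0.1 with 3 against 3. There were 7.04, 8.68 and 7.59 piRNA counts per 1000 miRNA counts in ZT0 and 13.3, 8.65 and 8.54 in ZT12, where ZT12 replicate 1 was high and the groups overlapped (fold 1.28, exact 2-sided p = 0.3). miRNA counts were 54.2%, 46.0% and 48.3% of the total behind the RPM in ZT0 and 38.7%, 45.6% and 46.1% in ZT12 (fold 0.877, exact p = 0.2). The share of miR-184-3p gave a fold of 0.652 (exact p = 0.8), and 1.09 without ZT0 replicate 1, which was singled out by this miRNA. The share of rr features gave a fold of 0.929 (exact p = 0.7) and that of the second piRNA set 0.854 (exact p = 0.5). Adjusted over these 5 measures the p-values ran from 0.75 to 0.8.

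The same contrast in old heads was set against that in young ones in a fit of all 36 libraries, with 363 miRNA features tested. Of the old libraries compared, ZT0 replicate 3 had miR-184-3p at 37.1% of its miRNA counts, against 8.63% to 12.8% in the other 5. With it went miR-998-3p, at 35.8, 33.4 and 441 CPM in old ZT0 and 30.0, 24.3 and 23.7 in old ZT12. Old ZT0 replicate 1 had a summed RPM of the ovary miRNAs of 723, against 13.3 to 54.4 in the other 5. In old heads edgeR called 0 higher (0%) and 0 lower (0%), with 56 at an unadjusted p under 0.05 (15.4%), 15 higher (4.13%) and 41 lower (11.3%). That count rests on the libraries used: 22 (5.96%) reached an unadjusted p under 0.05 and 0 were called (0%) without old ZT0 replicate 3, 3 were called without old ZT0 replicate 1, 1 higher (0.271%) and 2 lower (0.542%), and 8 were called when young ZT0 replicate 1 left the fit, 2 higher (0.542%) and 6 lower (1.63%).

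The difference between the ages, which is the test of the young pattern against the old, called 0 in either direction (0%), with 33 at an unadjusted p under 0.05 (9.09%), of which 11 were more positive in old heads (3.03%) and 22 more negative (6.06%). It also called 0 of 369 (0%) without young ZT0 replicate 1, without old ZT0 replicate 3 and without both, with 47 (12.7%), 41 (11.1%) and 29 (7.86%) at an unadjusted p under 0.05. First in p was miR-306-5p. Its log2 difference was -0.44 in young and 0.58 in old heads, where it stood at 1142, 1135 and 750.3 CPM in ZT0 and 1871, 1235 and 1423 in ZT12 (old minus young 1.02, SE 0.25, unadjusted p = 0.000347, adjusted p = 0.126, edgeR). Without young ZT0 replicate 1 and old ZT0 replicate 3 together the difference between the ages was 0.85 (adjusted p = 0.534, edgeR). For miR-34-5p, at 47564, 44204 and 32404 CPM in old ZT0 and 32155, 49673 and 38574 in old ZT12, the old groups overlapped and the difference between the ages was -0.77, SE 0.27, unadjusted p = 0.00835, adjusted p = 0.381 (edgeR). Without young ZT0 replicate 1 it was -0.50, and -0.64 without both libraries. For miR-275-5p the difference was 0.58 in young and -0.27 in old heads (old minus young -0.84, SE 0.26, unadjusted p = 0.0027, adjusted p = 0.381, edgeR). Without young ZT0 replicate 1 the difference between the ages was -1.05 (adjusted p = 0.0550, edgeR), and -0.99 without both. For miR-33-3p the log2 difference was 1.15 in young and -0.93 in old heads (adjusted p = 0.413, edgeR), and 0.849 and -1.201 without both libraries. The growth and sensory-organ miRNA miR-7-5p, with -0.65 in young and 0.34 in old heads (adjusted p = 0.413, edgeR), rested on young ZT0 replicate 1, which had 3013 CPM against 991 and 1024 in the other ZT0 libraries. Without that library the young value was 0.02 and the old 0.32, so the signs no longer differed, and the difference between the ages went from 0.996 to 0.303. Among piRNA features the difference between the ages called 0 of 85 (0%), with 2 at an unadjusted p under 0.05 (2.35%).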

How the data were processed

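The deposited tables hold small RNA values of 36 libraries, 3 for each age and time, and the 18 young libraries entered the fit. No column was left over: 0 belonged to a sample that is not listed. The authors deposited expected counts per miRNA arm and per piRNA cluster, and the same features as RPM; the miRNA RPM divide by the miRNA total of the library, and the piRNA RPM by a larger total that the files do not name. Per the submitters' processing notes Bowtie and the builds BDGP6 and dm6 were used; versions and the meaning of "adjusted" in the tables are not given in the sources used here.

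Counts were rounded to whole numbers and put through the quasi-likelihood test of edgeR 4.0.16 (R 4.3.3; filterByExpr over the 6 times, TMM factors, time as a factor, contrast ZT12 minus ZT0), with Benjamini-Hochberg adjustment over all tested features of a table. The code was tested on simulated data. An SE is the log2 difference over the root of its F value. Alternatives were RLE factors, library totals, other filters, DESeq2 1.42.0, limma 3.58.1 on log2(RPM + 1), a replicate block, other sets of libraries, miR-184 or rr features left out, the total behind the RPM as library size, and each library left out. Hairpins were placed by name on the BDGP6 annotation (456 of 495 names).

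The compared libraries, the lists and the fixed miRNAs were chosen with earlier results of these data known. Named by rule were the arms of smallest p with a mean of at least 10 CPM, up to 16, the 6 piRNA features and the 5 age differences of smallest p, and a fixed set of miRNAs. The lists of clusters, families, tissues and functions take both arms of each hairpin and every copy of a locus, so copies with nearly the same values count more than once. Figures were drawn with matplotlib 3.10.9.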

Additional observations from a re-analysis of the deposited data

How the results depend on the processing

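In young heads the count of called miRNA arms was 0 in the fit as reported and stayed 0 with no filter, the filter at 10 CPM, the 6 libraries alone, the ovary-rich or the miR-184 arms left out, scaling to the RPM total, and each of the 6 libraries left out in turn (0 to 0). It was 1 with RLE, DESeq2, all 36 libraries and rr features left out (miR-9378-5p, adjusted p = 0.0479, 0.0223, 0.0416 and 0.0310), and 1 with library totals alone and limma (miR-275-5p, 0.0464 and 0.0359). Of 3 alternatives added after seeing the data, run for counts only, 36 libraries less young ZT0 replicate 1 called 2 (miR-9378-5p and miR-275-5p, both 0.0477), and the other 2 called 0. The piRNA count was 0 under every alternative run.

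With a replicate block, 2 arms were called, miR-9378-5p and miR-263a-3p (both 0.0276), and 49 had an unadjusted p under 0.05. Same-numbered libraries deviated with r of 0.16, -0.13 and 0.38 across miRNA features and 0.19, -0.18 and -0.07 across piRNA features, so the numbers were not taken to pair the libraries. The age difference called 0, but miR-306-5p was called with RLE and with the filter at 10 CPM (1 each, adjusted p = 0.0439 and 0.0228), and without old ZT12 replicate 2 (0.0441); leaving out 1 library gave 0 to 1. It called 0 without young ZT0 replicate 1 and old ZT0 replicate 3 together, an alternative added after seeing the data.

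Some fitted log2 differences near 0 turned sign. With RLE and DESeq2 miR-8-3p was -0.012 and -0.012, with the filter at 10 CPM -0.00012 and with the 6 libraries alone -0.0068. With rr features left out bantam-3p was -0.022 and miR-8-3p -0.044. With library totals alone miR-100-5p was 0.0061, miR-263b-5p 0.086, let-7-5p 0.19, miR-276a-3p 0.18, miR-276b-3p 0.19 and miR-125-5p 0.21. With limma miR-100-5p was 0.013, miR-263b-5p 0.11, let-7-5p 0.19, miR-276a-3p 0.22, miR-276b-3p 0.23, miR-125-5p 0.19 and miR-989-3p 1.1e-05. These 2 settings move the median of all features from 0.06 to 0.28 and 0.22. With no filter miR-276a-3p was 0.024, miR-276b-3p 0.028 and miR-125-5p 0.019, and scaled to the RPM total let-7-5p was 0.00063, miR-276a-3p 0.016, miR-276b-3p 0.019 and miR-125-5p 0.049.

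Leaving out 1 library gave these ranges of the log2 difference: bantam-3p -0.18 to 0.26, let-7-5p -0.27 to 0.14, miR-1-3p -1.87 to 0.31, miR-10-5p -1.82 to 0.0093, miR-125-5p -0.28 to 0.0998, miR-184-3p -1.99 to 0.052, miR-210-3p -0.017 to 0.31, miR-263a-5p -1.21 to 0.23, miR-263b-5p -0.65 to 0.42, miR-277-3p -0.0996 to 0.28, miR-278-5p -1.48 to 0.0048, miR-8-3p -0.22 to 0.19, miR-959-3p -1.09 to 0.86, miR-989-3p -0.90 to 1.06 and miR-996-3p -0.083 to 0.47. The log2 difference of the rr share ran from -0.29 to 0.071 and that of the miR-184-3p share from -1.05 to 0.12. The cause was not tested. With 2 libraries left in a group, the spread is taken from all young libraries.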

Other observations

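Among the features with rr identifiers, 6 with nearly the same values (among them rr884543-1b-5p-miR and rr817694-3b-5p-miR) stood at 361 CPM in ZT0 replicate 1, 162 or 163 in replicate 2 and 119 in replicate 3. In ZT12 they stood at 193 CPM in replicate 1, 140 in replicate 2 and 114.6 or 114.7 in replicate 3. In each group the library numbered 1 was the highest, and the groups overlapped. All 6 are counted apart among the 20 features of at least 10 CPM that were high in ZT0 replicate 1. Of the 335 miRNA features not tested, 98 had a count of 0 in all 6 libraries, and none exceeded 0.708 CPM. In the fit of all young libraries the median SE was 0.20 for miRNA arms of at least 10 CPM and 0.51 for piRNA features. These SEs set the size of difference that this fit could call. They draw on the spread of all young libraries, those rich in ovary miRNAs included. Each piRNA feature tested in both fits had a smaller SE in the fit of the 6 libraries alone. For clu-41 in the first set it was 0.22, against 0.93 in the fit of all young libraries.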
